A study of Mus musculus with 16 samples.

Results

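The classical complement pathway was followed in the mouse aorta through 9 genes: C1qa, C1qb, C1qc, C1ra, C1s1, C2, C3, C4b and Serping1. They were taken by gene symbol, which found 9 of the 54532 genes in the expression table. RNA was sequenced in 16 libraries from aortas of male Apoe-/- mice (lacking apolipoprotein E, a strain that is hyperlipidaemic) on the C57BL/6j background, aged 8 to 12 weeks. Of the 16 libraries, 8 came from mice given saline (0.9% sodium chloride) and 8 from mice given angiotensin II (Ang II) at 1000 ng/kg/min, both from an implanted osmotic mini-pump for 7 days, so every animal in both groups lacked Apoe and carried a pump, per the labels' protocol. The library names also carry the letters WT, which the labels do not explain. Ang II infusion into hyperlipidaemic mice is a standard model of aortic aneurysm and dissection. The adventitia had been removed, so the outer layer, which holds many fibroblasts and macrophages, was meant to be absent. The labels do not say whether each library is 1 mouse or a pool, and the p-values below measure the spread between these 16 libraries.

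Classical complement starts when C1q, a hexameric recognition protein built from A, B and C chains, binds antibody, C-reactive protein or dying cells. Bound C1q activates the serine proteases C1r and C1s, which cut C4 and C2. The fragments form the convertase that cleaves C3, the protein at which all complement pathways meet. C1 inhibitor, encoded by Serping1, blocks C1r and C1s and also plasma kallikrein. Most plasma complement is made by the liver, whereas C1q is made mainly by macrophages and dendritic cells, and vascular and stromal cells make C1r, C1s, C3, C4 and C1 inhibitor locally.

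The values were deposited as FPKM, in which fragment counts are divided by the length of the transcript and the size of the library. Levels of different genes can thus be set side by side, as far as the length used matches the transcripts present. Read numbers recovered from the values put the depth at 14606864 to 17590088 reads for saline and 15779125 to 19988730 for Ang II. Saline 8, Saline 7 and Saline 2 stood apart on the first principal component, which held 46.9% of the variance. Of 15007 genes with a mean of at least 0.5 FPKM, limma on log2(FPKM + 1) after Benjamini-Hochberg adjustment (threshold 0.05) found 1431 higher (9.54%) and 3741 lower (24.9%) with Ang II, together 34.5%. The median gene fell by 0.12 on the log2 scale, and scaling by median ratios turned the split into 2235 higher and 2113 lower. Adipocyte markers summed to 191 to 542 FPKM in saline and 121 to 209 FPKM in Ang II libraries. Most of this sum came from Plin4 (means 113 and 53.3 FPKM) and Pnpla2 (92.4 and 52.4 FPKM), so it says little about the others. Of the 11 adipocyte markers tested, 2 had a log2 fold change above 0 and 9 below. Smooth muscle markers summed to 20049 to 33902 FPKM in saline and 11584 to 18724 FPKM in Ang II. The contractile myosin gene Myh11 averaged 1561 FPKM in saline and 852 FPKM in Ang II, and Pecam1, of endothelium, 460 and 267 FPKM, so both cell types were present. Endothelial markers did not move together: of 12 tested, 1 was higher and 3 were lower, with a median log2 fold change of -0.11, and they summed to 726 to 1777 FPKM in saline and 274 to 1579 FPKM in Ang II. Fewer cells of a type and less RNA per cell cannot be told apart in these bulk samples.

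Among the classical complement genes, Serping1 rose and C1ra fell with Ang II, each by less than 1.5-fold, while the 3 C1q chains, C3, C4b and C1s1 did not pass the test. Of the 9 members, 8 had enough expression to be tested, of which 1 was higher, against a background of 9.54% of all genes, and 1 was lower, against 24.9%. Both shares come from single genes, so they describe no difference between this set and the rest of the transcriptome. In none of the 9 did every Ang II library lie on 1 side of every saline library, a pattern met upward by 2.74% and downward by 5.62% of tested genes. The median log2 fold change over the 8 tested members was 0.03, against -0.12 over all tested genes.

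**Figure D1:**
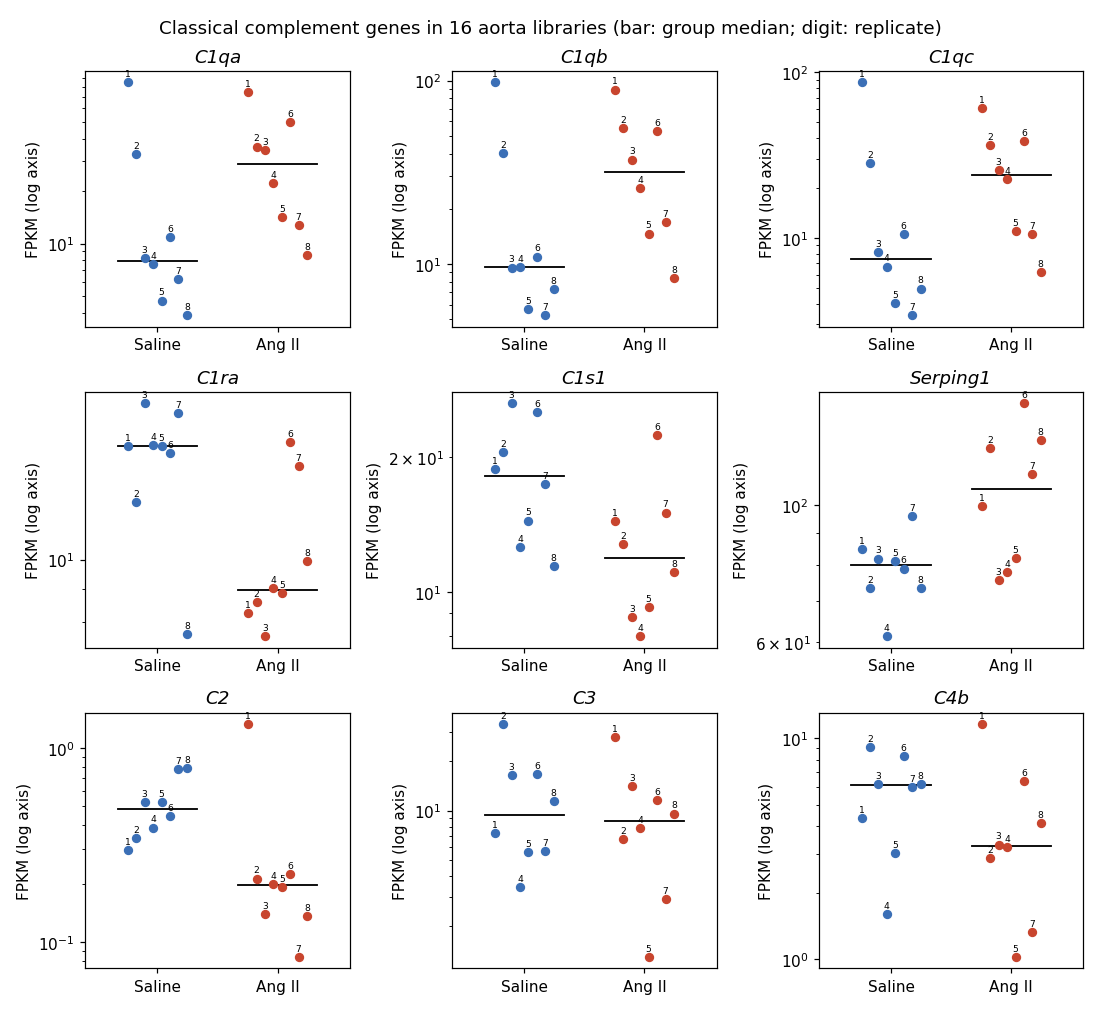
Level of each of the 9 classical complement genes in each of the 16 libraries, in FPKM on log axes. Digits mark the replicate numbers and bars the group medians, and the groups overlap in every panel.

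**Figure D2:**
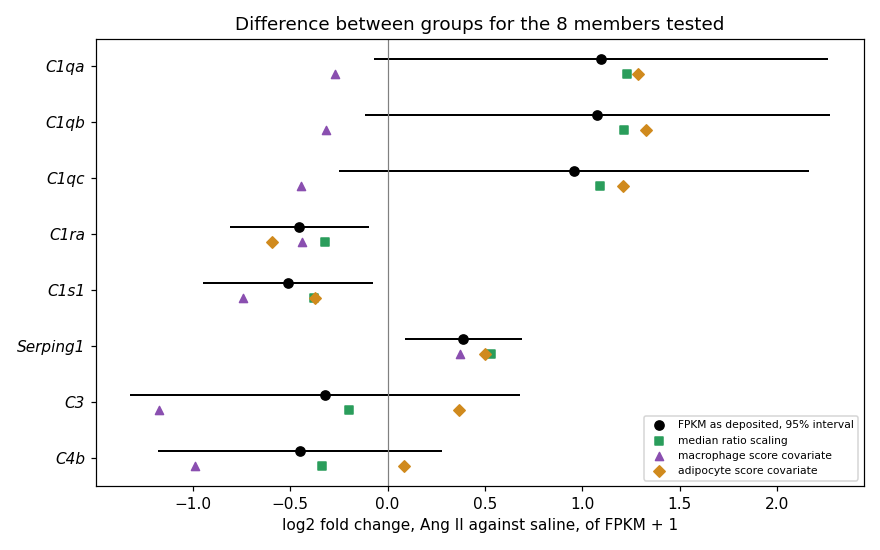
Difference in mean log2(FPKM + 1) between Ang II and saline for the 8 tested members, with the 95% confidence intervals of the limma fit as black bars. Squares, triangles and diamonds give the same difference after median ratio scaling and with the macrophage or the adipocyte score as a covariate. The intervals of Serping1, C1ra and C1s1 lie to 1 side of zero, and those of the C1q chains are the widest along with C3.

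The 3 C1q chain genes were higher in most Ang II libraries, but 1 saline library carried the highest level of all, and none of the 3 passed the limma test (0 at an unadjusted p under 0.05, and 0 by limma voom on the recovered reads). They lie next to each other on chromosome 4 within 18.7 kb, all on the minus strand: C1qa (ENSMUSG00000036887) at chr4:136895917-136898803, C1qb (ENSMUSG00000036905) at chr4:136880129-136886187 and C1qc (ENSMUSG00000036896) at chr4:136889804-136893065, in GRCm38. Their proteins are needed together, since each stem of C1q is a triple helix of 1 A, 1 B and 1 C chain. RefSeq promoter windows, 250 bases before to 50 after the start in GRCm38.p6, were matched for C1qb and C1qc, which are shown because their levels moved together from library to library. Capitals mark a PU.1-type ETS core, GAGGAAG or CTTCCTC on the other strand, the type of site bound by the myeloid factor PU.1.

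C1qb, chr4:136886151-136886450, minus strand: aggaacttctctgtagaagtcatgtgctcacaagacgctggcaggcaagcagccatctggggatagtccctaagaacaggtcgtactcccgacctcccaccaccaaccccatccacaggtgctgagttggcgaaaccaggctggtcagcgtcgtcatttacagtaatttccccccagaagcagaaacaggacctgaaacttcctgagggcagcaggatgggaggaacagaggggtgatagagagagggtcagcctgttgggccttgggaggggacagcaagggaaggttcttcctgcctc
C1qc, chr4:136892865-136893164, minus strand: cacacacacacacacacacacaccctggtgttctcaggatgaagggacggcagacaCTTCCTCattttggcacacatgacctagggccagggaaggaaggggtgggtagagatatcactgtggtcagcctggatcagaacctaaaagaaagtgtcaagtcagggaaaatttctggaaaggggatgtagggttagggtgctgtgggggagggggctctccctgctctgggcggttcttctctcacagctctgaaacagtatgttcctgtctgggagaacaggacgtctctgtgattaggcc

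The C1qc window held 1 such core, starting at base -194 relative to the RefSeq start, and the C1qb window held none. Of the 32851 promoter windows of the same length, 13.6% held it. The RefSeq start of C1qc lies inside the gene span given above, so the core is closer to the edge of that span. Neither window held the interferon-gamma activated site TTCNNNGAA (8.30% of windows), the core of the interferon-stimulated response element (3.44%) or the C/EBP-type site TTGCNNAA (10.8%) on either strand. A match describes letters in the window and not a bound site.

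C1qa ran from 3.87 through a median of 7.92 to 84.4 FPKM in saline, and from 8.57 through 28.5 to 74.6 FPKM in Ang II. The lowest Ang II library was above the saline median, so all 8 Ang II libraries lay above it, but Saline 1 (84.4 FPKM) exceeded every Ang II library and Saline 2 (32.7 FPKM) exceeded 4 of them. The saline mean was 19.8 ± 27.7 FPKM (SD, n = 8) and the Ang II mean 31.6 ± 22.3 FPKM (SD, n = 8). The log2 fold change was 1.10 (SE 0.55, 95% interval -0.07 to 2.26), with a limma adjusted p of 0.132.

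C1qb spanned 5.26 to 97.6 FPKM in saline (median 9.58) and 8.39 to 89.4 FPKM in Ang II (median 31.6). Its mean was 23.3 ± 32.2 FPKM in saline and 37.6 ± 27.2 FPKM in Ang II (SD, n = 8 each). C1qc spanned 3.42 to 86.4 FPKM in saline (median 7.48) and 6.18 to 60.7 FPKM in Ang II (median 24.0), with means of 19.0 ± 28.3 and 26.3 ± 18.2 FPKM. For both chains 7 of 8 Ang II libraries lay above the saline median, and Saline 1 was again the highest library of all. The log2 fold changes were 1.08 for C1qb (SE 0.56, limma adjusted p = 0.147) and 0.96 for C1qc (SE 0.57, limma adjusted p = 0.204).

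Leaving out Saline 1 brought these chains past the threshold. Summed over the 3 chains, C1q transcripts ran from 14.4 through 25.0 to 268 FPKM in saline and from 23.1 through 84.0 to 225 FPKM in Ang II, the saline maximum being Saline 1. Without Saline 1 the log2 fold changes were 1.49, 1.47 and 1.38 for C1qa, C1qb and C1qc, with limma adjusted p of 0.0184, 0.0239 and 0.0303. That library was left out after its values were seen, and no label sets it apart from the other saline libraries. Leaving out any of the other 15 libraries left all 3 chains short of the threshold.

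Within each group the 3 chains followed each other closely. Over the 8 saline libraries C1qa and C1qb correlated with r = 0.98 (rho = 0.88, exact permutation p = 0.00104, adjusted over 20 relations 0.00347), and over the 8 Ang II libraries with r = 0.98 (rho = 0.95, exact permutation p = 0.000198, adjusted 0.000992). C1qb and C1qc gave r = 0.99 in both groups (rho 0.98 and 0.95, exact permutation p adjusted 0.000496 and 0.000661), and C1qa and C1qc gave 0.98 and 0.99 (rho 0.90 and 1, adjusted exact permutation p 0.00248 and 0.000496). Without the 2 libraries farthest from the median the saline values were 0.73 for C1qa with C1qb, 0.80 for C1qa with C1qc and 0.97 for C1qb with C1qc. The first 2 of these then had exact permutation p of 0.111 and 0.0667, so these 2 saline calls were not kept over the 6 libraries left. Whether that comes from Saline 1 and Saline 2 or from the smaller number left cannot be told apart. In Ang II the 3 coefficients were 0.96 to 0.98 without Ang II 1 and Ang II 8. The chain ratios had overlapping groups. The ratio of C1qb to C1qa had a median of 1.19 in saline and 1.12 in Ang II, and that of C1qc to C1qa 0.926 and 0.794.

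Macrophage and monocyte markers moved with the C1q chains. The 20 listed markers, of which 19 were tested, 5 were higher and 1 lower with Ang II, summed to 68.9 to 680 FPKM in saline and 114 to 930 FPKM in Ang II, and the highest libraries were Saline 1 and Ang II 1, as for C1q. Lyz2 was the largest part of this sum, with means of 87.4 FPKM in saline and 146 FPKM in Ang II. It reached 404 FPKM in Saline 1 and 414 FPKM in Ang II 1, and did not pass (limma adjusted p = 0.130). Of the 19 tested, 18 had a log2 fold change above 0 and 1, Mertk, below. None of the 20 was at 0 in all libraries. Csf1r, the macrophage colony-stimulating factor receptor, averaged 1.88 FPKM in saline and 6.15 FPKM in Ang II (log2 fold change 1.21, limma adjusted p = 0.00808), although 15.1% of its exon bases overlap Hmgxb3. C1qa correlated with Csf1r with r = 0.77 in saline (rho 0.83, exact permutation p adjusted 0.0497) and 0.88 in Ang II (rho 0.83, adjusted 0.0101), and with 0.56 and 0.77 without the 2 farthest libraries, where neither held (exact permutation p 0.239 and 0.1). The ratio of C1qa to Csf1r had a median of 5.43 in saline and 4.63 in Ang II, with maxima of 22.8 and 8.37. That of C1qa to Cd68, a macrophage lysosomal protein, had medians of 1.82 and 1.77 and maxima of 2.39 and 3.35. When the fit also held the macrophage and monocyte score, the log2 fold changes turned to -0.27 for C1qa, -0.32 for C1qb and -0.44 for C1qc (limma adjusted p 0.507, 0.442 and 0.297). The part of macrophages in the C1q levels was not tested beyond this covariate. Pan-leukocyte markers, 1 of 7 tested being higher, summed to 1.89 to 53.6 FPKM in saline and 7.41 to 148 FPKM in Ang II. Over the 16 libraries, with the group means removed, the tested genes most like C1qa were C1qc (r = 0.983), C1qb (0.981), Cotl1 (0.962), Fcgr3, an antibody receptor of myeloid cells (0.961), and Ms4a7 (0.955), a description across libraries that share their depth and tissue composition.

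**Figure D3:**
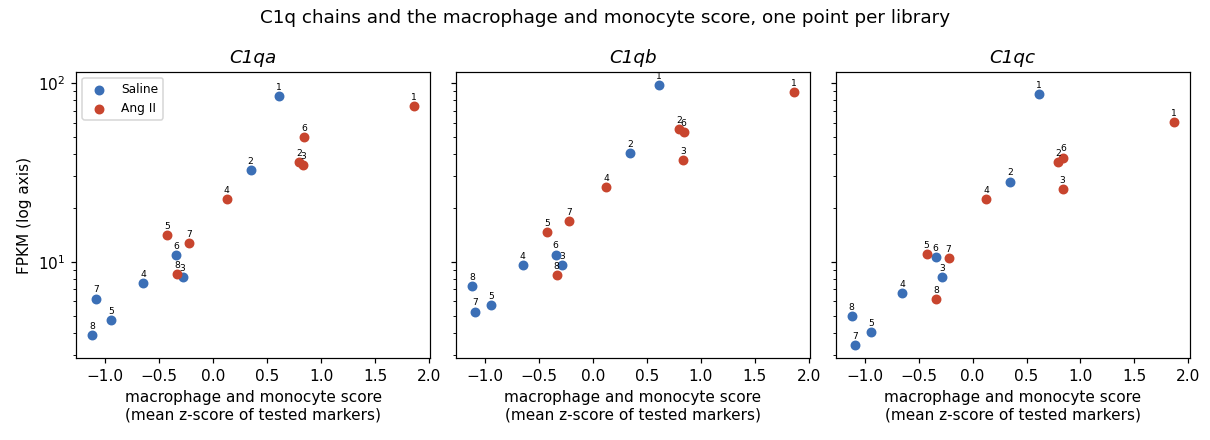
Level of C1qa, C1qb and C1qc in FPKM on log axes against the macrophage and monocyte score, the mean z-score of the tested markers, with 1 point per library coloured by group. Levels of all 3 chains were mostly higher in libraries with a higher score, with exceptions such as Ang II 5 and Saline 6. Saline 1 and Ang II 1 had the highest score of their groups. Saline 1 was also an exception. It had the highest level of all 3 chains at a score of 0.61, below the 0.80, 0.83 and 0.84 of Ang II 2, 3 and 6.

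The inhibitor of C1 rose with Ang II and its target protease C1ra fell, whereas the other protease, C1s1, did not pass the test. Serping1 (ENSMUSG00000023224, chr2:84765387-84775444, minus strand) was the most abundant member. It ran from 61.3 through 80.0 to 95.9 FPKM in saline and from 75.7 through 106 to 146 FPKM in Ang II. Ang II 1, 2, 6, 7 and 8 lay above every saline library, and Ang II 3, 4 and 5 lay within the saline range. The mean was 78.9 ± 10.1 FPKM in saline and 106 ± 26.1 FPKM in Ang II (SD, n = 8 each), a log2 fold change of 0.39 (1.31-fold, SE 0.14, 95% interval 0.09 to 0.68, limma adjusted p = 0.0397). Relative to the median gene the difference was 0.51, and with median ratio scaling it was 0.53.

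C1ra (ENSMUSG00000055172, chr6:124512405-124523443, plus strand) encodes the protease that is first to act within C1. It ran from 7.64 through 15.0 to 17.6 FPKM in saline and from 7.60 through 8.96 to 15.3 FPKM in Ang II. In saline 7 of 8 libraries lay at 12.3 FPKM or more and in Ang II 6 of 8 lay at 9.94 FPKM or less. The exceptions were Saline 8, at the bottom of the saline group, and Ang II 6 and Ang II 7, at the top of theirs. The mean fell from 14.3 ± 3.12 to 10.2 ± 2.85 FPKM (SD, n = 8 each), a log2 fold change of -0.45 (0.730-fold, SE 0.17, 95% interval -0.80 to -0.10, limma adjusted p = 0.0431).

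C1s1 (ENSMUSG00000038521, chr6:124530345-124542359, minus strand) encodes the protease that cuts C4 and C2, and lies beside C1ra in a span of 29.96 kb. It ran from 11.5 through 18.2 to 26.4 FPKM in saline and from 7.98 through 11.9 to 22.5 FPKM in Ang II. Ang II 3, 4, 5 and 8 lay below every saline library, while Ang II 6 was above 6 saline libraries. The means were 18.4 ± 5.54 and 12.7 ± 4.71 FPKM (SD, n = 8 each), with a log2 fold change of -0.51 (SE 0.21, 95% interval -0.94 to -0.08) and a limma adjusted p of 0.0622, short of the threshold. Of its exon bases, 18.4% overlap Gm16567.

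These 3 results sit near the threshold. The Serping1 call was lost without any 1 of Saline 2, 4, 6 and 8 or Ang II 1, 2, 6, 7 and 8 (log2 fold change 0.32 to 0.39, limma adjusted p 0.0539 to 0.0796). The C1ra call was lost without any 1 of Saline 1, 3, 4, 5, 6 and 7 or Ang II 1, 2, 3, 4, 5 and 8 (-0.45 to -0.40, limma adjusted p 0.0610 to 0.0849), and under median ratio scaling (-0.32, limma adjusted p = 0.126). C1s1 passed without Saline 4, Saline 8 or Ang II 6 (-0.63 to -0.58, limma adjusted p 0.0177 to 0.0419).

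The start regions of C1ra and C1s1, neighbours that end toward each other, are shown because both protease transcripts had lower means with Ang II, C1s1 short of the threshold. Capitals mark C/EBP-type sites, TTGCNNAA on either strand, and in C1ra also the interferon-gamma activated site TTCNNNGAA.

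C1ra, chr6:124512371-124512670, plus strand: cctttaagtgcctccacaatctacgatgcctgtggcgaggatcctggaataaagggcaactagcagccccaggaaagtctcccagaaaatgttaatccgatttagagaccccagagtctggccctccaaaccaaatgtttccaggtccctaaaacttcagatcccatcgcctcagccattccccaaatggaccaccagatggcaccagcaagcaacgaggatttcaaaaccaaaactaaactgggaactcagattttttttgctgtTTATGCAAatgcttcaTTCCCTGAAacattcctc
C1s1, chr6:124542310-124542609, minus strand: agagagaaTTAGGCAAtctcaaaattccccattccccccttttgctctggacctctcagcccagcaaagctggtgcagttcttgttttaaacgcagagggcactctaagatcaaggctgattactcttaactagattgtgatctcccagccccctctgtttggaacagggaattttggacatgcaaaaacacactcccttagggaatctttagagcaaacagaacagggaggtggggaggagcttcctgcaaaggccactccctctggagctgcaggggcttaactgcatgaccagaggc

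In C1ra both matches, TTATGCAA and TTCCCTGAA, lie downstream of the RefSeq start, at bases 16 and 32. The C1ra window opens at 124512371 and the gene span given above at 124512405. Most of the window, with its RefSeq start, thus lies inside that span. In C1s1 the match TTAGGCAA lies at base -242. A second RefSeq window for C1s1, chr6:124542272-124542571, starts farther downstream and held none of the 4 motifs. Neither gene's windows held the PU.1-type core or that of the interferon-stimulated response element.

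The balance of inhibitor to C1s transcripts within a library separated the groups completely. These ratios were formed after the values of the 3 genes had been seen, so they are given as a description with no test. The ratio of Serping1 to C1s1 ran from 3.10 through 4.69 to 6.40 in saline and from 6.52 through 8.71 to 11.5 in Ang II, and every Ang II library was above every saline library. The difference in mean log2 ratio was 0.94, or 1.92-fold, and lay between 0.87 and 1.02 when single libraries were left out. Against other tested genes, Serping1 gave such a separation for 12.7%, and 2.44% of tested genes did so against C1s1. The ratio of Serping1 to C1ra ran from 4.05 through 5.52 to 9.60 in saline and from 8.01 through 9.77 to 14.4 in Ang II. Saline 8 was the highest saline library for that ratio, and 4 Ang II libraries lay above it, with a difference in mean log2 ratio of 0.89 (1.85-fold). The ratio of C1s1 to C1ra had overlapping groups, with medians of 1.38 in saline and 1.14 in Ang II.

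**Figure D4:**
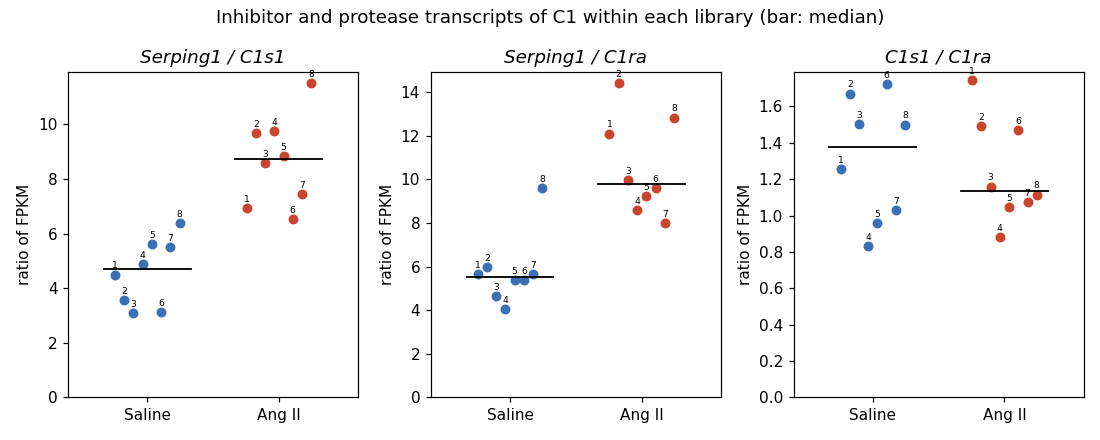
Ratio of Serping1 to C1s1, of Serping1 to C1ra and of C1s1 to C1ra within each library, as ratios of FPKM on axes from 0, with bars at the group medians. For Serping1 to C1s1 the Ang II libraries start at 6.52, above the saline maximum of 6.40.

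C1s1 and Serping1 correlated over the 8 Ang II libraries (r = 0.83, rho = 0.76, exact permutation p adjusted 0.0278). Without Ang II 4 and Ang II 6 the coefficient was 0.66 (exact permutation p = 0.189) and the call was not kept. Whether that comes from those libraries or from the smaller number left cannot be told apart. In saline r was 0.42 (rho = 0.43, exact permutation p adjusted 0.403). C1ra and C1s1 gave r = 0.55 in saline (rho = 0.31, exact permutation p adjusted 0.243) and 0.75 in Ang II (rho = 0.50, adjusted 0.0571), where the value without Ang II 6 and Ang II 7 was -0.01. The genes most like C1s1 with the group means removed were Gng7 (r = 0.825), Cd46, a complement regulator (0.809), Lrrc1 (0.807), Arhgap26 (0.793) and Apopt1 (0.785). Fibroblast and adventitial markers, of which 1 of 13 tested was higher and 3 lower, summed to 888 to 1253 FPKM in saline and 865 to 1099 FPKM in Ang II. Most of this sum came from Gsn (means 397 and 290 FPKM), Mfap5 (267 and 303 FPKM) and Smoc1 (217 and 215 FPKM), so it says little about the others. Of the 13 tested, 5 had a log2 fold change above 0 and 8 below, with a median of -0.12. Pdgfra, a fibroblast receptor, averaged 4.78 and 4.17 FPKM and gave with C1ra an r of 0.42 in saline (rho = 0.05) and -0.03 in Ang II (rho = -0.02), with adjusted exact permutation p of 0.403 and 0.945. With the fibroblast score as a covariate the differences were 0.36 for Serping1 and -0.40 for C1ra, neither past the limma threshold. With the macrophage and monocyte score they were 0.37 for Serping1 (limma adjusted p = 0.132) and -0.74 for C1s1 (limma adjusted p = 0.0307).

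C2, C3 and C4b supply the convertases and their substrate, and none passed the limma test (0 at an unadjusted p under 0.05 of the 2 tested, and 0 of 3 by voom). C3 (ENSMUSG00000024164, chr17:57203970-57228136, minus strand) ran from 3.45 through 9.37 to 33.2 FPKM in saline and from 1.31 through 8.70 to 27.8 FPKM in Ang II. Saline 2 and Ang II 1 were the high libraries, Ang II 5 and Ang II 7 were below every saline library, and the groups overlapped widely. The means were 12.5 ± 9.76 and 10.2 ± 8.25 FPKM (SD, n = 8 each), with a log2 fold change of -0.32 (SE 0.47, 95% interval -1.32 to 0.67, limma adjusted p = 0.619).

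C4b (ENSMUSG00000073418, chr17:34728380-34743882, minus strand), the mouse C4, ran from 1.59 through 6.12 to 9.09 FPKM in saline and from 1.02 through 3.26 to 11.6 FPKM in Ang II. Ang II 1 was the highest library of all and Ang II 5 and Ang II 7 the lowest. The means were 5.60 ± 2.53 and 4.24 ± 3.41 FPKM (SD, n = 8 each), with a log2 fold change of -0.45 (SE 0.34, 95% interval -1.17 to 0.28, limma adjusted p = 0.324). Its close copy C4a averaged 0.943 FPKM in saline and 0.481 FPKM in Ang II (limma adjusted p = 0.0559), and reads from near-identical copies may have been split between the 2 genes.

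C3 and C4b followed each other. Over all 16 libraries with the group means removed, C4b was the gene most like C3 and C3 the gene most like C4b (r = 0.902). Xdh (0.880), Gfpt2 (0.834), Mmp19 (0.831) and Tsku (0.831) came next for C3, and Lrg1 (0.893), Akr1b8 (0.860), Gfpt2 (0.845) and Penk (0.835) for C4b. The ratio of C3 to C4b had a median of 1.93 in saline and 2.32 in Ang II, with overlapping groups. C3 and Cfd, the adipocyte protease factor D, gave r = 0.67 in saline (rho = 0.60, exact permutation p adjusted 0.131) and 0.61 in Ang II (rho = 0.55, adjusted 0.178). C4b and Serping1 gave 0.43 and 0.29 (adjusted exact permutation p 0.399 and 0.531).

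The differences of C3 and C4b depended on which marker score the fit held. In a fit that held the adipocyte score, the log2 fold changes turned to 0.37 for C3 and 0.083 for C4b, and in 1 that held the macrophage and monocyte score they were -1.17 and -0.99 (limma adjusted p 0.0639 and 0.0506). Of 11 tested adipocyte markers 4 were lower, and Adipoq, the defining one, averaged 7.38 FPKM in saline and 2.28 FPKM in Ang II (limma adjusted p = 0.212). Liver markers, listed for the main source of plasma complement, summed to 3.59 to 51.6 FPKM in saline and 2.80 to 76.4 FPKM in Ang II. Most of this came from Hp (means 14.3 and 16.6 FPKM) and Cyp2e1 (6.15 and 1.70 FPKM). Alb averaged 0.456 and 1.27 FPKM, and Apoa1, Apoa2, Ttr, Serpina1a and Fgb 0.317 FPKM or less in either group. The part of these cell types in the levels of C3 and C4b was not tested beyond these covariates.

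C2 (ENSMUSG00000024371, chr17:34862604-34898265, minus strand), 169.9 kb from the start of the C4b locus to its own end, was barely expressed. It ran from 0.296 through 0.485 to 0.787 FPKM in saline and from 0.0838 through 0.196 to 1.33 FPKM in Ang II, which corresponds to 6 to 15 and 2 to 25 reads. In Ang II 7 of 8 libraries lay below every saline library, and Ang II 1 lay above all of them. Its overall mean was under 0.5 FPKM, so it had no main test. Without the filter the difference on the log2(FPKM + 1) scale was -0.24 (limma adjusted p = 0.30). On the recovered reads, limma voom gave -1.13 (adjusted p = 0.0534), and without Ang II 1 it gave -1.46 (adjusted p = 0.00748), a setting chosen after the values were seen. Of its exon bases, 46.9% overlap Gm20547 and Zbtb12. C2 and Cfb, its counterpart in the alternative pathway, gave r = -0.13 in saline (rho = 0.00) and -0.32 in Ang II (rho = -0.29, exact permutation p adjusted 0.815 and 0.456).

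The order of levels differed between the groups. By the saline median the order was Serping1, C1s1, C1ra, C1qb, C3, C1qa, C1qc, C4b and C2. Serping1 was above C1s1 in 8 of 8 saline libraries and C4b above C2 in 8 of 8, but the middle of the order was loose, C1qb being above C3 in 4 of 8 libraries and C3 above C1qa in 5 of 8. By the Ang II median the order was Serping1, C1qb, C1qa, C1qc, C1s1, C1ra, C3, C4b and C2. There C1qb was above C1qa in 7 of 8 libraries, C1qc above C1s1 in 6 of 8 and C3 above C4b in 8 of 8. By the mean rather than the median, the C1q chains also took ranks 2 to 4 in saline, since Saline 1 was so high.

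The other complement genes, 65 symbols of which 28 were tested, held 4 higher and 2 lower genes, with a median log2 fold change of -0.03. Over all tested genes 9.54% were higher and 24.9% were lower, and the count of lower genes over all depended on scaling (3741 as deposited, 2113 with median ratio scaling). With so few of the 28 called in either direction, these counts describe no difference between them and the rest of the transcriptome. The 4 that rose were all among the 13 receptor and binding-protein symbols, 10 of them tested. C5ar1, the receptor for the C5a fragment, averaged 0.240 ± 0.154 FPKM in saline and 2.23 ± 2.70 FPKM in Ang II (log2 fold change 1.06, SE 0.32, limma adjusted p = 0.0171), with 5 Ang II libraries above every saline library. C3ar1, the receptor for C3a, averaged 0.988 and 2.88 FPKM (0.94, SE 0.34, limma adjusted p = 0.0404). Itgam, a chain of complement receptor 3, averaged 0.358 and 2.23 FPKM (0.90, SE 0.34, limma adjusted p = 0.0483), but 68.7% of its exon bases overlap Gm49368. The saline means of C5ar1 and Itgam were under 0.5 FPKM, so both entered the test only through their Ang II levels. Without the filter the limma adjusted p was 0.0426 for C5ar1, 0.0973 for C3ar1 and 0.108 for Itgam. Calr, a chaperone that also binds C1q, averaged 338 ± 49.9 and 442 ± 68.8 FPKM (0.38, SE 0.12, limma adjusted p = 0.0180).

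C5ar1 and Calr passed without any 1 of the 16 libraries. C3ar1 passed without 5 of them, missing without any 1 of Saline 3 to 8 or Ang II 1, 2, 3, 4 and 6 (limma adjusted p 0.0559 to 0.0795). Itgam passed without 4, missing without any 1 of the saline libraries or Ang II 1, 2, 3 and 6 (limma adjusted p 0.0506 to 0.0927). In a fit that also held the macrophage and monocyte score, the log2 fold changes were 0.34 for C5ar1, 0.08 for C3ar1 and 0.14 for Itgam (limma adjusted p 0.282, 0.732 and 0.706). In the same fit Calr was at 0.35 (limma adjusted p = 0.0918), and with the adipocyte score at 0.37 (limma adjusted p = 0.0693). The part of myeloid cells in the receptor levels was not tested beyond this covariate.

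The 2 that fell were C1qtnf2 and Clu. C1qtnf2, a C1q-domain protein of the adipokine family rather than a pathway component, fell from 66.1 ± 8.68 to 41.1 ± 6.55 FPKM (-0.68, SE 0.11, limma adjusted p = 0.000152), with 7 of 8 Ang II libraries below every saline library. Clu, a chaperone that restrains the terminal complex, fell from 1283 ± 316 to 881 ± 163 FPKM (-0.52, SE 0.17, limma adjusted p = 0.0256). Clu missed the threshold without Ang II 1 (-0.45, limma adjusted p = 0.0527) and under median ratio scaling (limma adjusted p = 0.0935). By list, limma called 1 of 6 tested paralogs of the members and 1 of 6 regulators, both lower. It called none of 4 lectin and alternative pathway genes (1 lower at an unadjusted p under 0.05). Voom tested 6 of that list and called Masp1 higher and Masp2 lower, neither being among those 4. Limma called none of 2 terminal pathway genes (0 at an unadjusted p under 0.05 and 0 by voom).

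Several abundant complement genes did not pass. Cfd averaged 45.4 ± 45.2 and 16.7 ± 23.1 FPKM (log2 fold change -1.41, limma adjusted p = 0.312), and Cfp, properdin, which stabilises the alternative convertase, 23.8 and 18.6 FPKM (limma adjusted p = 0.657). Cd59a, the membrane inhibitor of the terminal complex, averaged 71.6 and 69.6 FPKM, Lrp1, an endocytic receptor, 292 and 333 FPKM, and Cr1l, a membrane regulator, 40.2 and 41.3 FPKM. C1qbp averaged 28.3 and 22.4 FPKM (limma adjusted p = 0.0865), Colec12, a scavenger collectin, 37.8 and 25.5 FPKM (limma adjusted p = 0.124), and Cd93 10.2 and 16.6 FPKM (limma adjusted p = 0.203). C1qtnf1 averaged 20.5 and 21.5 FPKM and C1qtnf6 47.5 and 50.1 FPKM.

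Parts of the pathway were close to silent in the aorta. C1rb, the second mouse C1r gene, averaged 0.0064 and 0.0141 FPKM and was at 0 in 13 of 16 libraries, and C1s2 averaged 0.0453 and 0.0245 FPKM. Cfb averaged 0.0450 and 0.104 FPKM, with 79.5% of its exon bases overlapping Gm20547. Hc, the mouse C5, averaged 0.0201 and 0.0274 FPKM, and C8b, C9, Mbl1 and Fcnb were listed at 0 in all libraries. Masp1, a protease of the lectin pathway, was outside the main test and was chosen after its values were seen. It averaged 0.0572 ± 0.0634 FPKM in saline and 0.591 ± 0.254 FPKM in Ang II (SD, n = 8 each). All 8 Ang II libraries lay above all 8 saline libraries, as for 2.74% of the genes in the main test. The saline level was near the floor, with 2 libraries at 0, so a fold change starts from a level close to 0. Without the filter the difference on the log2(FPKM + 1) scale was 0.58 (limma adjusted p = 0.000264), and voom on the recovered reads gave 3.64 (limma adjusted p = 0.000194). Masp2, its sister protease in the same pathway and also outside the main test, went the other way, from 0.535 ± 0.424 to 0.0931 ± 0.120 FPKM, with 7 of 8 Ang II libraries below all saline libraries (-0.46 without the filter, limma adjusted p = 0.0199, and -3.00 by voom, limma adjusted p = 0.00287). Of its exon bases, 54.9% overlap Tardbp.

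**Figure D5:**
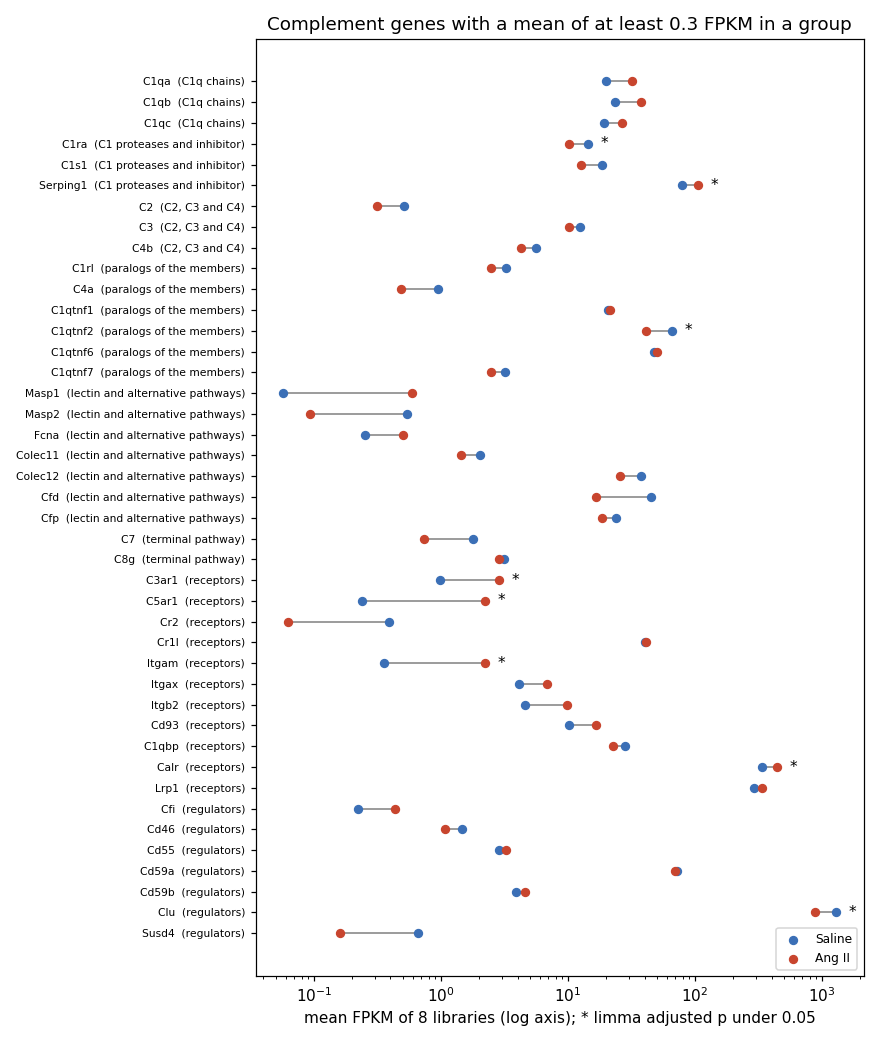
Mean FPKM of 8 libraries per group, on a log axis, for 42 complement genes at 0.3 FPKM or more, the 9 members included, with an asterisk where the limma adjusted p was under 0.05. Clu, Calr and Lrp1 are at the top of the range, Serping1 is the highest of the members, and C5ar1 shows the widest gap between groups among the starred genes.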

How the data were processed

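RNA-seq of 8 saline and 8 Ang II libraries of aorta was used as the table of FPKM values per gene that the authors deposited, one column per library, with all 16 columns matched to their labels by title. Per the submitters' processing notes the genome was GRCm38/mm10. Which aligner and counting program were used is not given in the sources used here. FPKM is divided by transcript length and library size, so a strong change in a few abundant genes moves all others.

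From these values log2(FPKM + 1) was fitted with limma 3.58.1 (R 4.3.3) with an intensity trend over 15007 genes with a mean of at least 0.5 FPKM. Tests were two-sided and p-values were adjusted by Benjamini-Hochberg over all genes tested. Whole reads were recovered from the FPKM steps and GENCODE M21 transcript lengths: 95.8% to 96.3% of values per library came out whole within 0.02 read, for 30444 of 31423 genes above 0 in all their values. Voom on the recovered reads, an alternative added after the values were seen, called 4990 of 15750 genes. No 2 libraries of a group agreed within counting noise. Exact permutation tests covered 20 correlations, over 8 libraries each. Depth is read counting only, and PCR copies are not told apart. A limma fit of the same form was also run on simulated reads, drawn gene by gene. There some genes were raised and none lowered, unlike in these data.

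The members and lists were chosen with earlier results of these data known. All 9 members are named. Of the other complement genes those past the threshold are named, together with those of at least 10 FPKM and others set by name (C1rb, C1s2, C4a, Cfb, Cfd, C3ar1, C5ar1). Some genes that this rule would name are not reported here. Alternatives were another pseudocount, other filters, other scaling, sample weights, marker scores as covariates, a rank test and leaving out libraries. The labels' batch field holds the same entry for every sample, so no split by batch could be made.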

Additional observations from a re-analysis of the deposited data

Results flagged for a closer look

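Values of 5 of the 18 combinations of member and group lay far from the rest of their group, by the gap to the nearest library divided by the whole range (above Dixon's critical value at the 95% level). Chance would flag about 1 in 20 such groups if the values were normally distributed. The rule was applied to FPKM rather than to log2 values, where high values are drawn in, so that rate may not hold here. The C1q chains share their libraries, so their 3 flags are not separate events. In Saline 1, C1qa stood at 84.4 FPKM (next 32.7), C1qb at 97.6 FPKM (next 40.3) and C1qc at 86.4 FPKM (next 28.1). C2 stood at 1.33 FPKM in Ang II 1, where the next library had 0.223 FPKM. C3 stood at 33.2 FPKM in Saline 2, where the next had 16.7 FPKM. No cause of these values was tested.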

How the results depend on the processing

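The members' calls lie close to the threshold, and depth limits C2, which has 2 to 25 reads per Ang II library. Genes called numbered 3077 (834 higher, 2243 lower) with the macrophage score in the fit and 2913 (855 and 2058) with the adipocyte score in it, and the split was 2270 higher and 2374 lower after quantile normalization and 2235 and 2113 with median ratio scaling. Members called higher numbered 0 with no filter, sample weights, the macrophage or fibroblast score, the Wilcoxon rank-sum test, without Saline 2, 7 and 8, and with voom without Ang II 1. Members called lower numbered 0 with no filter, quantile normalization, median ratio scaling, the fibroblast score and the Wilcoxon test, and 2 with sample weights or without Saline 7 and 8. Other complement genes called higher numbered 2 with no filter and without Saline 2, 7 and 8, 0 with the macrophage score and 1 with the adipocyte score. Those called lower numbered 1 with no filter, quantile normalization, median ratio scaling and the macrophage score, 9 with sample weights, and 4 without Saline 7 and 8 and without Saline 2, 7 and 8.

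The C1ra difference was no longer past the threshold at -0.45 with no filter, with the Wilcoxon test and with voom without Ang II 1, at -0.35 after quantile normalization, -0.32 with median ratio scaling, and -0.44 and -0.40 with the macrophage and fibroblast scores. Serping1 was no longer past it at 0.39 with no filter and the Wilcoxon test, 0.34 with sample weights, 0.37 and 0.36 with the macrophage and fibroblast scores, 0.41 without Saline 2, 7 and 8, and 0.40 with voom without Ang II 1. C1s1 passed at -0.72 with sample weights, -0.74 with the macrophage score and -0.61 without Saline 7 and 8. C2 was at -0.85 with a pseudocount of 0.1, -1.13 with voom and -1.46 with voom without Ang II 1. The macrophage score turned C1qa to -0.27, C1qb to -0.32 and C1qc to -0.44, and the adipocyte score turned C3 to 0.37 and C4b to 0.083. Without the 2 farthest libraries, correlations past the threshold numbered 4 rather than 9, and C4b with Serping1 in saline turned to -0.51, C2 with Cfb in saline to 0.62 and C1ra with C1s1 in Ang II to -0.014. Beyond fewer genes or samples in a fit, the cause was not tested.

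Leaving out single libraries gave 4491 to 5407 genes called (1177 to 1535 higher, 3235 to 3894 lower), 0 to 4 members higher and 0 to 2 lower, and 2 to 5 other complement genes higher and 1 to 4 lower (4 without Saline 4, Saline 8 or Ang II 6, 1 without Ang II 1). The ranges were 0.88 to 1.49 for C1qa, 0.85 to 1.47 for C1qb, 0.74 to 1.38 for C1qc, -0.57 to -0.40 for C1ra, -0.63 to -0.43 for C1s1, 0.32 to 0.45 for Serping1, -0.36 to -0.20 for C2, -0.57 to -0.05 for C3 and -0.66 to -0.29 for C4b.

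Over all tested genes the replicate numbers did not clearly pair the libraries. Correlations of same-numbered deviations ran from -0.25 to 0.39, were over 0.1 in 5 of 8 pairs, and 2 of 8 libraries matched best with their own number. The C1q sum did follow the numbers in part. It was highest at number 1 (268 FPKM in Saline 1, 225 FPKM in Ang II 1). It was lowest at numbers 5, 7 and 8 (14.4, 14.9 and 16.1 FPKM in saline, 39.8, 40.1 and 23.1 FPKM in Ang II). The reason was not tested. With the replicate number as a block, limma called 4945 genes and 4 members higher, with C1qa at 1.10 (adjusted p = 0.00726), C1qb at 1.08 (0.00872) and C1qc at 0.96 (0.0141) past the threshold, C1s1 at -0.51 (0.0269) past it and C1ra at -0.45 (0.0502) not.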
